A study of Homo sapiens with 48 samples.

Results

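Microexons are internal exons so short that they add only a few codons to a transcript, and those of 27 nt or less were followed here through the knockdown of 2 splicing factors. Members were the cassette exons (exons that a transcript either includes or skips) of at most 27 nt in the event table, with an inclusion value and a coverage score above the lowest grade in all 48 libraries. This left 227 microexons in 200 genes, out of 24757 cassette exons of any length that met the same conditions. The measure throughout was the percent spliced in (PSI), the percent of transcripts at an exon's locus that include it.

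The cells were IMR90 ER:RAS fibroblasts, a human lung fibroblast line that carries HRAS G12V fused to the ligand-binding part of the oestrogen receptor. Every group carried this fusion, which 4OHT (4-hydroxytamoxifen) activates and the vehicle DMSO does not. Cells were transfected on day 6 with a non-targeting siRNA (siNT1 or siNT2), an siRNA against SF3B1 (siSF3B1-13 or siSF3B1-16) or one against RBM39 (siRBM39-06 or siRBM39-08), and RNA was taken 2 days later in 0.5% serum. The 6 groups of siNT, siSF3B1 and siRBM39, each in DMSO and in 4OHT, held 8 libraries apiece, 4 for each siRNA. For 4 siNT2 libraries in 4OHT the treatment label named siNT1, and the title was followed. The study's methods call replicates of cell culture work independent experiments, and they state 3 replicates for this sequencing experiment where the labels give 4. The p-values measure the spread between these 48 libraries.

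An exon is kept when its 3′ splice site is recognised by U2AF and then by the U2 snRNP, whose component SF3B1 contacts the RNA around the branch point, and when its 5′ splice site is recognised by the U1 snRNP. In a microexon the sites lie so close together that the factors on either side have little room, and many microexons rely on intronic enhancers bound by SRRM4, SRRM3, SRSF11 and RNPS1, while PTBP1 represses others. Microexons are best known from neurons, where they alter the surfaces of adhesion, trafficking and chromatin proteins. RBM39 is a splicing factor related to the large U2AF subunit, U2AF2.

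Lengths ran from 3 to 27 nt with a median of 20 nt. There were 12 microexons of 3 nt and 34 of 27 nt, 78 were of at most 15 nt, and in 140 the length was a multiple of 3, so that including them keeps the reading frame. PSI was the same in all 48 libraries for 74 microexons, of which 70 stood at 0 and 4 at 100 (COL18A1 with 2, GLIPR1 and MRC2). The 70 at 0 had between 817 and 33605 reads over all libraries, which allowed a PSI of at most 0.00893 to 0.367%, a limit for counting error only. Among them were microexons of genes known for neuronal inclusion. For the 12 nt exon of KDM1A, the LSD1 histone demethylase, 5171 reads allowed at most 0.0580%, and for the 18 nt exon of SRC, the tyrosine kinase, 2550 reads allowed at most 0.118%. The limits were 0.211% for AP1S2 (9 nt, a clathrin adaptor subunit), 0.189% for EXOC1 (21 nt, exocyst), 0.134% for ENAH (12 nt, an actin regulator) and 0.0715% for MACF1 (15 nt, which links microtubules to actin). The remaining 153 microexons varied and entered the fit described next. In siNT cells, averaged over DMSO and 4OHT, 157 of the 227 had a mean PSI under 10, 22 lay between 10 and 90, and 48 were over 90.

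The sequences of 13 microexons are printed because the results turn on them: 8 fell after siSF3B1 and rose after siRBM39, and the others are the leading members that moved in another pattern. Each runs 5′ to 3′ on the gene's strand with the exon in capitals, 30 intronic bases before it and 10 after it, from the GRCh37 reference at the exon that matched the event in length and in both flanking introns. In this way 146 of the 227 microexons found 1 annotated exon, and all 146 had AG before and GT after the exon. Of these exons, 133 lay in the coding part of a transcript. Pyrimidines were counted in the 20 intronic bases nearest the exon after leaving out the AG and the base before it. These held between 8 and 20 pyrimidines over the 146, with a median of 15. The printed microexons of opposite response were AP2M1 at chr3:183898433-183898438 (plus strand), MAP4K4 at chr2:102484491-102484499 (plus strand), PSAP at chr10:73583645-73583653 (minus strand), PTPRS at chr19:5218798-5218809 (minus strand), TEAD2 at chr19:49859216-49859227 (minus strand), GOPC at chr6:117898611-117898634 (minus strand), NT5C2 at chr10:104865115-104865138 (minus strand) and SNX14 at chr6:86248556-86248582 (minus strand).
AP2M1: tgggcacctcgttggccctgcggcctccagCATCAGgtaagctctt
MAP4K4: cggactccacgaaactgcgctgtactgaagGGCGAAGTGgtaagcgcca
PSAP: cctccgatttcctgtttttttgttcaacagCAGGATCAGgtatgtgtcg
PTPRS: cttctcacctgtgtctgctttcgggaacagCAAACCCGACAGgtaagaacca
TEAD2: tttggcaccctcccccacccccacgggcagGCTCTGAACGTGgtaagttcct
GOPC: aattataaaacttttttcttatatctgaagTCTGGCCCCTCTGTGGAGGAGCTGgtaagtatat
NT5C2: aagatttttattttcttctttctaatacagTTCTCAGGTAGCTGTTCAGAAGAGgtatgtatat
SNX14: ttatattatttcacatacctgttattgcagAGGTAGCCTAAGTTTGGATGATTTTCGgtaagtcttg

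Of these exons AP2M1 has 6 nt, MAP4K4 and PSAP have 9, PTPRS and TEAD2 have 12, GOPC and NT5C2 have 24 and SNX14 has 27, all multiples of 3. The exon of RPS24 responded in the same way and is not printed. It has 22 nt, which is not a multiple of 3. The 20 intronic bases counted as above held 10 pyrimidines in MAP4K4 and 16 in PSAP and NT5C2. Of the remaining members, CYTH2 and PDLIM7 rose after both knockdowns, PHF21A rose after siSF3B1, and TRIM27 and DAPK3 fell after both. They were CYTH2 at chr19:48980974-48980976 (plus strand), PDLIM7 at chr5:176918405-176918421 (minus strand), PHF21A at chr11:45967627-45967649 (minus strand), TRIM27 at chr6:28875013-28875039 (minus strand) and DAPK3 at chr19:3963641-3963667 (minus strand).
CYTH2: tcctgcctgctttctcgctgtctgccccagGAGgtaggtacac
PDLIM7: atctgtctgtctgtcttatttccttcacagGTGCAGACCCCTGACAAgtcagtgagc
PHF21A: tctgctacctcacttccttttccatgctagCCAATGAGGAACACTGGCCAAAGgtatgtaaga
TRIM27: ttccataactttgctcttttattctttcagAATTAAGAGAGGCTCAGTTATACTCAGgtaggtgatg
DAPK3: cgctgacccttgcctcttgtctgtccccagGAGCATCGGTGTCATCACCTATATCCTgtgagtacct

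The targeted genes were checked first. SF3B1 counts fell by 3.45 and 3.59 on the log2 scale after siSF3B1 in DMSO and 4OHT, and RBM39 counts fell by 2.64 and 2.89 after siRBM39 (edgeR quasi-likelihood test, Benjamini-Hochberg adjusted p = 3.05e-34, 3.82e-35, 3.15e-38 and 1.25e-39). Depth ran from 31467221 to 52734636 counts per library. The siRBM39-08 library of replicate 4 in 4OHT stood apart, at a distance of 0.706 in log2 CPM from its siRNA and treatment mean against 0.0599 to 0.374 for the other 47. Of 8 fibroblast markers, VIM had a median corrected RPKM (reads scaled to transcript length and library depth, with a correction for mappability) of 2511 to 3205 over the 6 groups. The other 7 had lower medians in 4OHT than in DMSO with each siRNA target. With siNT the medians in DMSO and 4OHT were 3939 and 928 for COL1A1, 2666 and 251 for COL1A2, 1086 and 109 for COL3A1, 642 and 19.3 for DCN, 143 and 53.9 for THY1, 87.3 and 32.3 for PDGFRB and 63.2 and 12.4 for LUM. The part of this in the PSI differences between 4OHT and DMSO was not tested. The neuronal markers STMN2 and ELAVL3 had a median of 0 in every group, SNAP25 ran from 0.035 to 0.67, and the epithelial marker KRT19 ran from 1.48 to 4.45.

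After siSF3B1, 37 microexons fell in DMSO and 37 in 4OHT, with 42 falling in at least 1 treatment and 32 in both. A microexon was called where limma's moderated test on the logit of PSI passed an adjusted p of 0.05 over 16960 cassette exons and the mean PSI moved by at least 5 points. The 37 were 24.2% of the 153 tested, while 11.5% of all cassette exons tested were called lower in DMSO and 12.9% in 4OHT. Falls in DMSO ranged from 5.59 to 73.9 points, with a median change of -14.9, and in 4OHT from 5.29 to 78.7, with a median of -20.4. All called microexons changed with the same sign with either siRNA and in the other treatment.

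The members that fell furthest in DMSO were those of TRIM27 (an E3 ubiquitin ligase), SNX14 (a sorting nexin), AP2M1 (the mu subunit of the AP-2 clathrin adaptor), PTPRS (a receptor tyrosine phosphatase) and PTS (an enzyme of tetrahydrobiopterin synthesis). They were followed by IMMT (which shapes mitochondrial cristae), MAP4K4 (a kinase), GRAMD1A (a sterol transporter, its 21 nt exon), ANXA6 (an annexin), PSAP (the saposin precursor), RPS24 (a ribosomal protein), MTCH2 (of the outer mitochondrial membrane), YTHDF1 (a reader of m6A), SAE1 (of the SUMO-activating enzyme) and LTBR (the lymphotoxin beta receptor). In 4OHT the 15 largest falls also included MARK3 (a microtubule-affinity kinase), NSFL1C (a cofactor of VCP), FIP1L1 (a polyadenylation factor), DAB2 (a clathrin adaptor) and GOLGA4 (a golgin).

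The TRIM27 microexon of 27 nt lay between 97.46 and 100 in the siNT libraries in DMSO, with a median of 100. After siSF3B1 it lay between 14.16 and 37.13 with a median of 25.1, and in 4OHT it went from 94.44 to 100 (median 100) to between 12.53 and 28.9 (median 20.9). No siSF3B1 library reached a siNT library, and the logit of PSI differed by -5.50 ± 0.32 (SE) in DMSO (limma, adjusted p = 7.56e-19). The two-sided exact permutation test of the mean PSI gave p = 0.000155 in each treatment, the smallest that 8 against 8 libraries can give. Microexons that siNT cells included almost fully in these genes also fell: PTS (23 nt), IMMT (15 nt) and YTHDF1 (25 nt). PTS, at 94.26 to 100 with siNT in DMSO (median 97.6), lay at 42.17 to 62.65 (median 54.2) after siSF3B1. IMMT, at 97.58 to 100 (median 99.2), lay at 57.76 to 77.38 (median 67.7). YTHDF1 stood at 100 in all 16 siNT libraries and lay at 59.59 to 86.43 (median 79.0) after siSF3B1 in DMSO. In these 3 the groups did not overlap, and after siRBM39 none was called.

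Fewer microexons rose after siSF3B1: 8 in DMSO (5.23% of those tested, against 0.46% of all exons) and 7 in 4OHT (4.58%, against 0.466%), 6 of them in both. They were CYTH2 (an exchange factor for ARF GTPases), POLR2J2 (an RNA polymerase II subunit paralogue), PHF21A (a subunit of the LSD1 complex), PDLIM7 (a PDZ and LIM protein), PLEKHM2 (a kinesin adaptor on lysosomes) and TRIM41 (an E3 ubiquitin ligase) in both treatments, PLXND1 (a semaphorin receptor) and ABCF3 in DMSO, and RABEP1 (a RAB5 effector) in 4OHT. In 2 of these 9 the length was a multiple of 3, against 28 of the 42 that fell. The flanking introns of the 9 had median lengths of 386 nt before and 257 nt after the exon, against 886 and 1107.5 nt for the 42.

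The 3 nt microexon of CYTH2 lay at 29.74 to 54.61 with siNT in DMSO (median 47.95) and at 68.63 to 85.62 after siSF3B1 (median 79.9), with no overlap. In 4OHT it lay at 56.6 to 78.81 (median 60.8) and at 66.32 to 87.67 (median 80.9), and the groups overlapped (limma, adjusted p = 1.08e-07 and 0.00156). PHF21A, at 0 to 4.36 with siNT in DMSO (median 0), lay at 9.44 to 25.34 after siSF3B1 (median 18) and at 0 to 7.5 after siRBM39 (median 0). In 4OHT these ranges were 0 to 13.53, 3.21 to 27.47 and 0 to 16.19, with medians of 1.66, 16.0 and 0, and they overlapped. The rise was called in both treatments (limma, adjusted p = 4.97e-06 and 0.00143), and the PHF21A differences of 0.768 and -0.658 points after siRBM39 were not. PDLIM7 lay at 0 to 4.44 with siNT in DMSO (median 3.83), at 8.28 to 21.16 after siSF3B1 (median 13.7) and at 7.38 to 14 after siRBM39 (median 11.04), so both knockdowns stood above all siNT libraries. In 4OHT PDLIM7 lay at 1.33 to 7.83 (median 3.06), 13.31 to 28.7 (median 17.4) and 7.02 to 26.62 (median 11.7), and siRBM39 overlapped siNT. POLR2J2 went from a median of 42.03 (27.5 to 52.24) to 58.9 (49.35 to 73.99) after siSF3B1 in DMSO and from 45.1 (36.08 to 54.86) to 70.0 (60.06 to 84) in 4OHT, with overlap in DMSO and none in 4OHT. POLR2J2 has near-identical copies, between which reads could be split, so its values are uncertain.

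**Figure D1:**
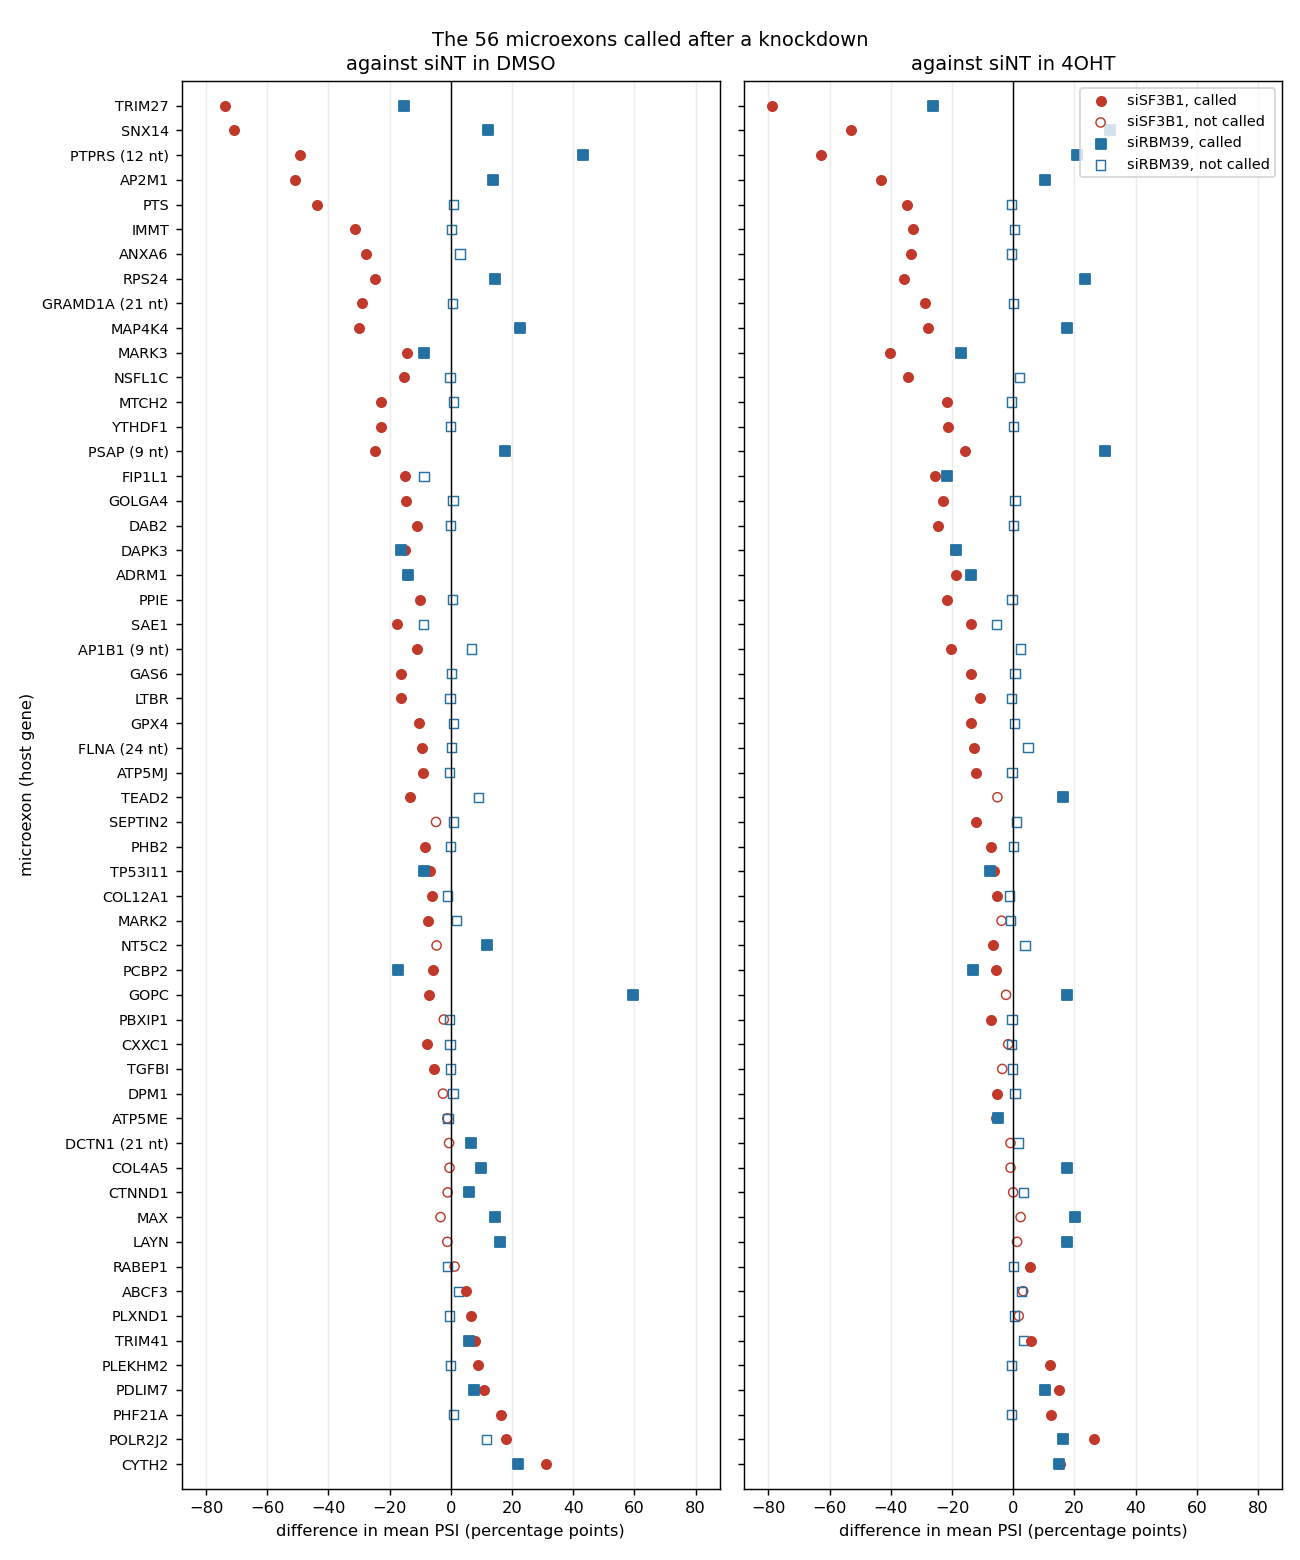
Difference in mean PSI from siNT (horizontal axis, percentage points) for the 56 microexons called after either knockdown (vertical axis), in DMSO on the left and 4OHT on the right. Circles are siSF3B1 and squares siRBM39, filled where called; TRIM27, with falls of 73.9 and 78.7 points after siSF3B1, stands at the top, and SNX14, PTPRS, AP2M1 and MAP4K4 have circles to the left of 0 and squares to the right.

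After siRBM39 more microexons rose than fell, while among all exons falls outnumbered rises. In DMSO 16 microexons rose, 10.5% of those tested against 0.436% of all exons, and 6 fell, 3.92% against 3.04%. In 4OHT 14 rose, 9.15% against 0.466%, and 8 fell, 5.23% against 3.52%. In all, 18 rose in at least 1 treatment and 12 in both, by 5.79 to 59.6 points in DMSO (median 14.04) and 10.3 to 31.7 in 4OHT (median 17.6). In 15 of these 18 the length was a multiple of 3, against 105 of the 171 microexons called after neither knockdown. Starting inclusion differed as well, with a median siNT PSI of 39.8 for the 18 and 0 for the 171. Of the 22 microexons with a siNT PSI of 10 to 90, 18 had a length that was a multiple of 3. Without the library that stood apart, 22 microexons were called in 4OHT, the same number as with it.

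The members that rose in both treatments were those of GOPC (a Golgi PDZ protein), PTPRS, MAP4K4, CYTH2, PSAP, LAYN (layilin, a hyaluronan receptor), RPS24, MAX (the partner of MYC), AP2M1, SNX14, COL4A5 (a type IV collagen chain) and PDLIM7. NT5C2 (a cytosolic nucleotidase), DCTN1 (a dynactin subunit, its 21 nt exon), CTNND1 (p120 catenin) and TRIM41 rose in DMSO, and TEAD2 (a transcription factor of the Hippo pathway) and POLR2J2 in 4OHT. LAYN, MAX, COL4A5, CTNND1 and DCTN1 were not called after siSF3B1. LAYN lay at 0 to 5.52 with siNT in DMSO (median 3.10) and at 9.73 to 32.45 after siRBM39 (median 17.6). MAX lay at 28.47 to 48.35 (median 39.8) in DMSO and then at 47.15 to 63.03 (median 52.9). COL4A5 lay at 0 to 7.75 (median 0.91) in DMSO and then at 2.68 to 23.53 (median 11.7). In DMSO the groups were apart for LAYN and overlapped for MAX and COL4A5.

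The microexons that fell after siRBM39 were those of PCBP2 (a poly(C)-binding protein), DAPK3 (a kinase), TRIM27, ADRM1 (a ubiquitin receptor of the proteasome), MARK3 and TP53I11 in both treatments, and FIP1L1 and ATP5ME (an ATP synthase subunit) in 4OHT. All 8 also fell after siSF3B1 in at least 1 treatment, and the share over all cassette exons is not given here. PCBP2, at 92.35 to 95.23 with siNT in DMSO (median 94.3), lay at 72.55 to 83.75 after siRBM39 (median 76.7) and at 84.35 to 90.9 after siSF3B1 (median 88.8). The 3 groups did not overlap, and PCBP2 stood lower after siRBM39 than after siSF3B1 by 11.3 points in DMSO and 7.62 in 4OHT (limma, adjusted p = 8.66e-08 and 2.77e-06). DAPK3 lay at 95.79 to 100 with siNT in DMSO (median 97.2), at 77.78 to 85.96 after siRBM39 (median 81.2) and at 77.78 to 88.57 after siSF3B1 (median 81.7). ADRM1 lay at 76.98 to 87.85 (median 83.3), 62.37 to 76.71 (median 69.3) and 60.23 to 77.39 (median 68.6) in the same order. In DAPK3 and ADRM1 the ranges after the 2 knockdowns overlapped over most of their length.

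In 4OHT PCBP2 lay at 94.45 to 98.06 with siNT (median 96.1), 80.04 to 87.97 after siRBM39 (median 83.3) and 88.67 to 92.47 after siSF3B1 (median 91.3). DAPK3 lay at 93.52 to 100 (median 98.5), 69.47 to 86.9 (median 79.8) and 65.92 to 87.15 (median 82.4) in the same order. ADRM1 lay at 80.41 to 86.92 (median 85.8), 58.51 to 77.83 (median 73.2) and 62.29 to 70.47 (median 65.7). In all 3 each knockdown stood below the siNT libraries. TRIM27 after siRBM39 lay at 71.14 to 100 in DMSO (median 83.5), overlapping siNT, and at 54.39 to 81.68 in 4OHT (median 73.6), below it. Its fall after siRBM39 was 15.3 points in DMSO and 26.3 in 4OHT, and in the direct comparison TRIM27 was lower after siSF3B1 by 58.6 and 52.4 points (limma, adjusted p = 2.33e-10 and 7e-08).

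A set of 9 microexons fell after siSF3B1 and rose after siRBM39, each in at least 1 treatment, and none did the reverse. The same counts over all cassette exons are not given here, so whether they are unusual for microexons cannot be said. They were those of AP2M1, MAP4K4, PSAP, PTPRS, TEAD2, RPS24, GOPC, NT5C2 and SNX14, and their median siNT PSI was 47.1. In AP2M1, MAP4K4, PSAP, PTPRS, RPS24 and SNX14 both changes were called in both treatments. For GOPC the fall was called in DMSO, for NT5C2 the fall was called in 4OHT and the rise in DMSO, and for TEAD2 the fall was called in DMSO and the rise in 4OHT. Both knockdowns were set against the same siNT libraries. The distance between siSF3B1 and siRBM39, whose direction the choice of these members sets, ran from 10.5 points (NT5C2 in 4OHT) to 92.7 (PTPRS in DMSO).

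The 6 nt microexon of AP2M1 had at least 618 reads in every library. PSI was 64.37 to 71.1 with siNT in DMSO (median 68.8), 14.75 to 19.52 after siSF3B1 (median 17.1) and 77.55 to 87.15 after siRBM39 (median 82.2). In 4OHT it was 59.79 to 64.81 (median 61.6), 17.24 to 21.07 (median 17.9) and 68.88 to 75.38 (median 72.3). Within each treatment the 3 groups were apart, with logit differences of -2.27 ± 0.06 and 0.73 ± 0.06 (SE) in DMSO (limma, adjusted p = 3.32e-31 and 1.49e-12). In MAP4K4 PSI was 40.91 to 48.84 with siNT in DMSO (median 44.7), 8.66 to 18.9 after siSF3B1 (median 15.7) and 61.55 to 71.08 after siRBM39 (median 68.4). In 4OHT the MAP4K4 values were 33.4 to 44.02 (median 38.1), 7.13 to 12.78 (median 11.1) and 51.35 to 60.16 (median 55.9), again without overlap.

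PSAP held 2 microexons of 9 nt, of which 1 was at 0 in all 48 libraries on 21302 reads. The other, whose sequence is shown above, lay at 59.86 to 64.69 with siNT in DMSO (median 61.9), 33.24 to 42.53 after siSF3B1 (median 35.7) and 76.42 to 83.14 after siRBM39 (median 80.1). In 4OHT it lay at 30.17 to 33.83 (median 32.2), 12.95 to 20.05 (median 16.3) and 56.32 to 66.5 (median 61.7). The 3 groups were apart in each treatment, and the siRBM39 libraries in 4OHT covered the range of siNT in DMSO. SNX14 lay at 75.21 to 92.92 (median 84.5), 5.63 to 19.37 (median 14.6) and 95.41 to 100 (median 97.7) in DMSO. In 4OHT SNX14 lay at 52.45 to 72.06 (median 61.7), 0 to 20.47 (median 8.93) and 91.62 to 100 (median 93.3), also without overlap.

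PTPRS held 5 of the microexons, and against siNT that of 12 nt shown above was the one called. The 18 nt exon of PTPRS was called lower after siSF3B1 than after siRBM39, by 8.66 points in DMSO and 16.0 in 4OHT, with overlapping libraries (limma, adjusted p = 0.0230 and 0.000160). The 12 nt exon rested on few reads, as few as 9 in a library. PSI was 34.6 to 70.51 with siNT in DMSO (median 56.8), 0 to 10.74 after siSF3B1 (median 3.85) and 92.41 to 100 after siRBM39 (median 100). In 4OHT it was 53.78 to 93.83 (median 68.7), 0 to 20.23 (median 9.35) and 83.53 to 100 (median 92.8), so siNT and siRBM39 overlapped there (limma, adjusted p = 0.00353 for the rise). GOPC had the largest rise after siRBM39 in DMSO, 59.6 points, and in 4OHT, where SNX14 rose furthest (31.7), it rose by 17.7. With siNT in DMSO it lay at 1.32 to 13.38 (median 7.50), after siSF3B1 it was 0 in all 8 libraries, which allows at most 0.437%, and after siRBM39 it lay at 43.57 to 87.17 (median 67.7). In 4OHT GOPC lay at 0 to 8.7 (median 2.08), 0 to 2.17 (median 0) and 9.93 to 29.16 (median 21.6).

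RPS24, NT5C2 and TEAD2 varied more between libraries. RPS24 (22 nt) lay at 60.2 to 89.52 (median 71.9), 35.79 to 74.16 (median 46.9) and 80.87 to 96.53 (median 86.4) in DMSO, in the order siNT, siSF3B1 and siRBM39, and each knockdown overlapped siNT. In 4OHT RPS24 lay at 46.98 to 81.43 (median 63.1), 20.18 to 44.42 (median 25.04) and 74.68 to 92.27 (median 87.3), and siSF3B1 stood below all siNT libraries. NT5C2 lay at 6.56 to 13.32 (median 8.62), 1.12 to 7.51 (median 5.31) and 17.69 to 27.01 (median 19.9) in DMSO. For NT5C2 in 4OHT the values were 6.7 to 18.62 (median 8.69), 0 to 10.62 (median 3.71) and 7.78 to 20.88 (median 15.1), with all groups overlapping. TEAD2 lay at 10.78 to 39.9 (median 17.2), 0 to 16.33 (median 5.91) and 9.04 to 48.61 (median 33.4) in DMSO. Its difference after siRBM39 in DMSO was 18.5 points with siRBM39-06 and -0.665 with siRBM39-08, and it was not called. In 4OHT TEAD2 lay at 0 to 24.75 (median 5.15), 0 to 9.79 (median 0) and 20.25 to 29.35 (median 23.6).

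**Figure D2:**
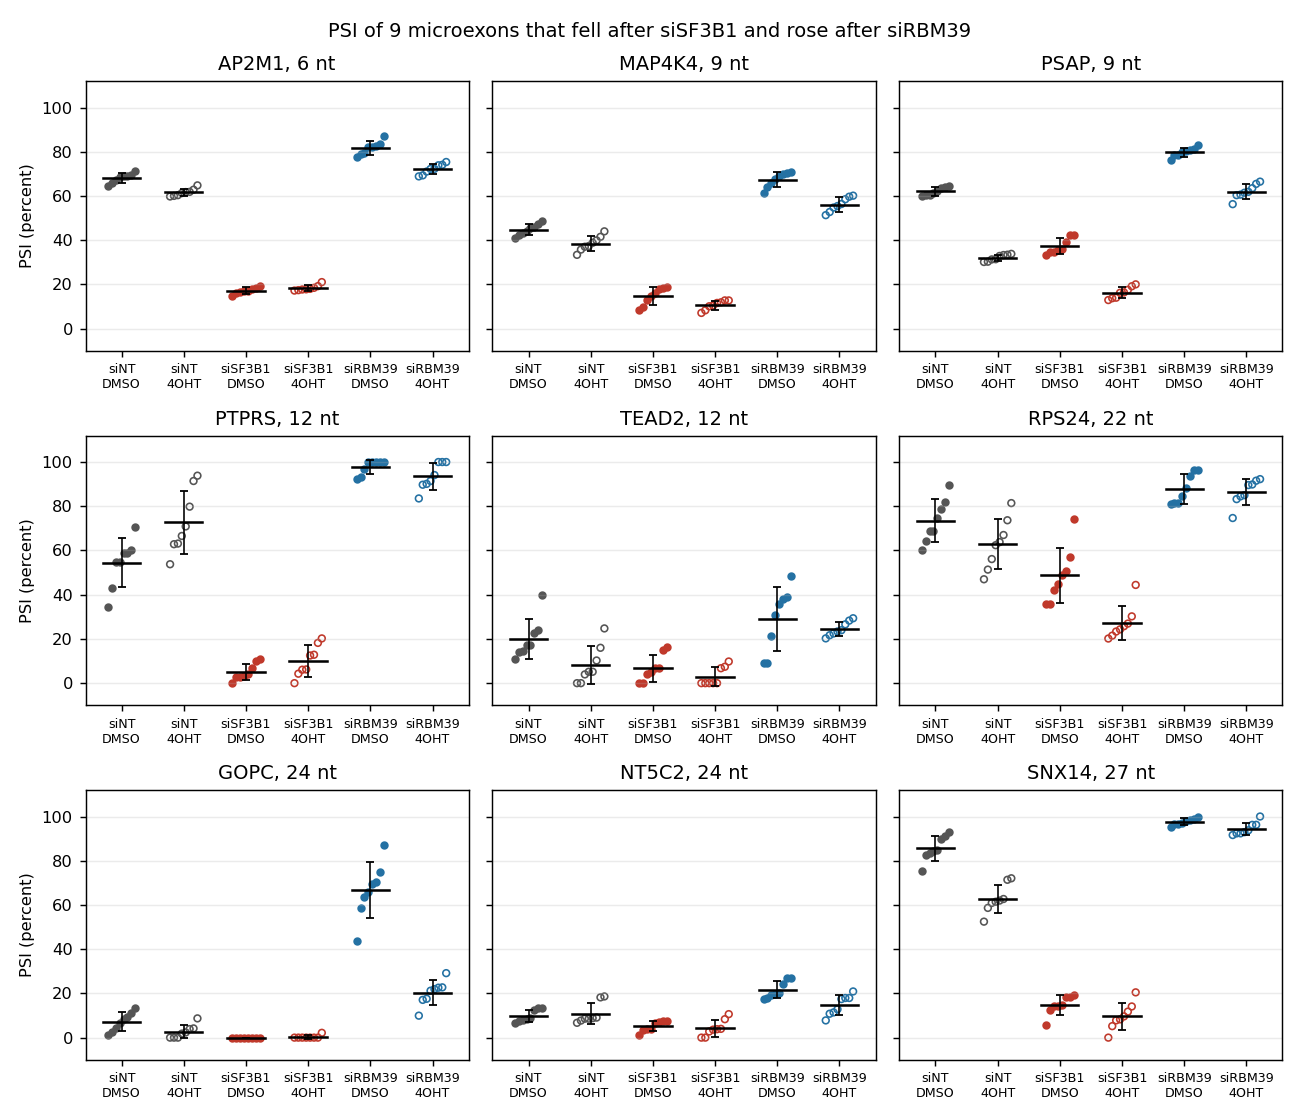
PSI in percent (vertical axis) of the 9 microexons that fell after siSF3B1 and rose after siRBM39, in the 6 groups of 8 libraries (horizontal axis). Each point is a library, filled in DMSO and open in 4OHT, and bars are the mean ± SD; AP2M1 goes from about 68.8 with siNT in DMSO (median) to 17.1 after siSF3B1 and 82.2 after siRBM39.

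Over all 153 microexons tested, siSF3B1 was lower than siRBM39 for 39 in DMSO and 36 in 4OHT, 25.5% and 23.5% against 9.12% and 10.3% of all exons. It was higher for 5 (3.27%, against 1.3%) and 6 (3.92%, against 1.35%). Those higher were PHF21A, PCBP2 and PLEKHM2 in both treatments, PLXND1 and the 21 nt exon of CLTC (clathrin heavy chain) in DMSO, and POLR2J2, RABEP1 and CD47 in 4OHT. At a siNT PSI of 10 to 90, 0 of 22 microexons were higher in DMSO and 1 in 4OHT (4.55%). Of 441 other cassette exons in that class, 22% and 20.6% were higher. Under 10 the microexon share was 4.6% in each treatment, against 2%. Over 90 it was 2.27% in each, against 0.468% and 0.571%.

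The mean PSI over the 227 microexons was 26.1 ± 0.122 with siNT in DMSO (SD over 8 libraries), 23.1 ± 0.165 after siSF3B1 and 27.3 ± 0.132 after siRBM39. In 4OHT it was 25.9 ± 0.188, 22.4 ± 0.400 and 26.7 ± 0.106. The changes were -3.01 and -3.50 points after siSF3B1 and 1.13 and 0.826 after siRBM39, while all 24757 cassette exons changed by -1.42, -1.71, -0.419 and -0.480. The median microexon changed by 0 in each comparison. By sign, 84 microexons were lower and 44 higher after siSF3B1 in DMSO, and 50 lower and 75 higher after siRBM39. In 4OHT these numbers were 90 and 37, and 58 and 63.

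How far PSI can move depends on where it starts, so microexons were set beside other cassette exons of the same siNT class. Of the 22 microexons between 10 and 90, 16 fell after siSF3B1 in each treatment (72.7%), against 57.4% of 441 other exons in DMSO and 60.3% in 4OHT. After siRBM39, 9 of the 22 rose in DMSO (40.9%) and 10 in 4OHT (45.5%), against 7.26% and 8.16% of the others, and 3 and 4 fell (13.6% and 18.2%), against 42.6% and 44.4%. The median change in this class after siRBM39 was 7.90 points in DMSO and 4.33 in 4OHT for microexons, and -6.67 and -6.63 for other exons. Over 90, 19 of 44 microexons tested fell after siSF3B1 in DMSO (43.2%) and 20 in 4OHT (45.5%), against 12% and 13.7% of 13667 other exons. In this class 3 of the 44 fell after siRBM39 in each treatment (6.82%), against 2.17% and 2.7% of the other exons. Under 10, 6 of 87 rose after siRBM39 in DMSO (6.9%) and 4 in 4OHT (4.6%), against 0.889% and 0.926% of 2699. After siSF3B1, 5 of the 87 rose in DMSO (5.75%) and 4 in 4OHT (4.6%), against 1.41% and 1.44%. Between 10 and 90, 2 of the 22 rose after siSF3B1 in each treatment (9.09%), against 7.26% and 7.03%. Over 90, 1 of the 44 did so in each (2.27%), against 0% and 0.0146%. These shares are descriptions, and no test was made of microexons against other exons.

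**Figure D3:**
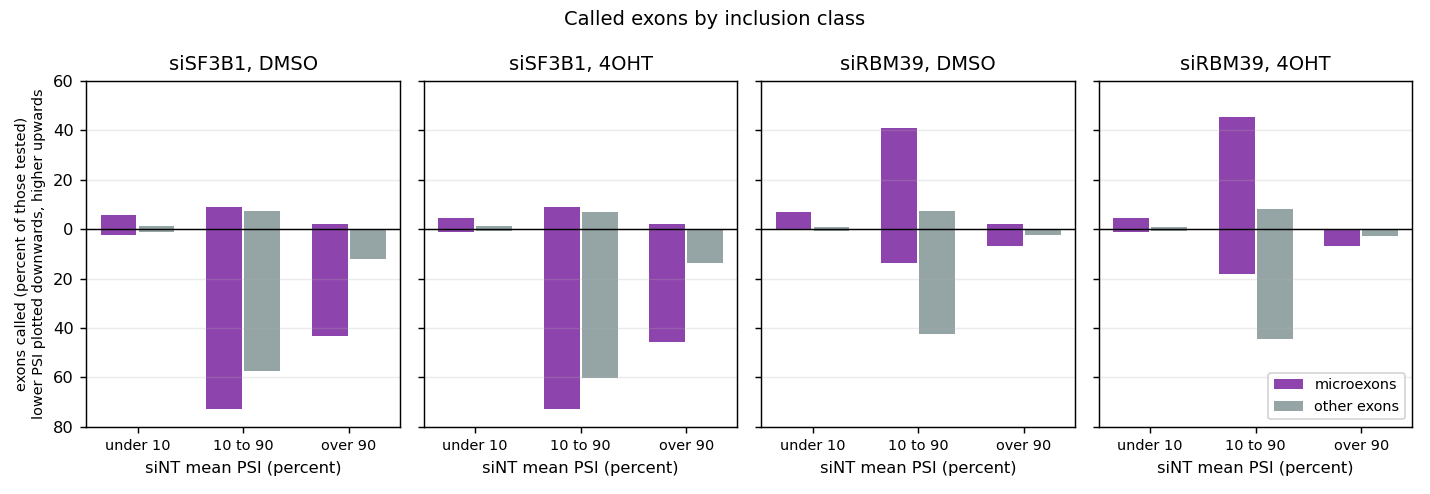
Percent of exons called in each class of siNT mean PSI (horizontal axis), with rises drawn upwards and falls downwards from 0, for microexons and other cassette exons in the 4 knockdown comparisons. In the class of 10 to 90, 40.9% and 45.5% of microexons rose after siRBM39, against 7.26% and 8.16% of other exons.

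RAS activation alone moved few microexons. Comparing 4OHT with DMSO in siNT cells, 4 fell (2.61% of those tested, against 0.507% of all exons) and 1 rose (0.654%, against 0.2%). All of these had a siNT PSI of 10 to 90. In that class 18.2% of 22 microexons fell, against 13.6% of 441 other cassette exons, and 4.55% rose, against 5.44%. The change was -29.97 points for PSAP, -22.8 for SNX14, -14.4 for MARK3, -6.46 for AP2M1 and 17.4 for CYTH2 (limma, adjusted p = 1.9e-18, 0.0170, 3.67e-05, 0.00670 and 0.0486). MARK3 lay at 87.67 to 100 with siNT in DMSO (median 95.3) and at 67.26 to 89.56 in 4OHT (median 79.2). For PSAP, SNX14 and CYTH2 the 4OHT and DMSO libraries did not overlap, and for MARK3 and AP2M1 they did. The number called was 3 without replicate 1 or without replicate 2 of every group.

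Whether the knockdown effect differed between 4OHT and DMSO was tested by interaction. For siSF3B1, 3 microexons were called (0.289% of all exons were). The 6 nt exon of NSFL1C went from a median of 52.4 with siNT (35.57 to 65.88) to 38.4 after siSF3B1 (24.36 to 44.59) in DMSO, and from 52.7 (39.17 to 57.28) to 14.98 (8.8 to 30.04) in 4OHT. The groups overlapped in DMSO and not in 4OHT, and the fall was greater in 4OHT by 19.3 points. The fall in AP2M1, whose ranges are given above, was smaller in 4OHT by 7.66 points. The 21 nt exon of CLTC lay at 3.01 to 8.8 with siNT in DMSO and 7.81 to 13.87 after siSF3B1, and at 0.76 to 3.75 and 0 to 2.69 in 4OHT, a difference of -6.06 points (limma, adjusted p = 0.0182, 0.0360 and 0.0216). No microexon was called without replicate 1 of every group, 1 without replicate 2 and 1 without replicate 4, and none was called with siNT1 or siNT2 alone as control or by the quasi-binomial test on reads. A comparison of read-based distributions (P_diff of at least 0.8) gave 23. For siRBM39, limma called 0 of 153 microexons (0.0118% of all exons were called), 8 had an unadjusted p under 0.05, the quasi-binomial test on reads also called 0, and P_diff gave 14. The GOPC rise was smaller in 4OHT by 41.9 points, and the logit difference of -1.09 ± 0.40 (SE) was not called (limma, adjusted p = 1).

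Levels of the host genes were tested on counts with edgeR, where fewer cells of a type and less RNA per cell cannot be told apart. Of 195 host genes tested, 139 changed after siSF3B1 in DMSO (71.3%, against 72.7% of 9991 genes), 153 in 4OHT (78.5%, against 77.0%), 87 after siRBM39 in DMSO (44.6%, against 46.1%) and 94 in 4OHT (48.2%, against 56.4%). Without the library that stood apart the last number was 107. Of the 36 host genes tested whose microexon fell after siSF3B1 in DMSO, 14 fell, 10 rose and 12 were not called. Of the 7 tested whose microexon rose there, 1 fell and 4 rose, and of 6 in 4OHT, 0 fell and 5 rose. The shares of all genes by direction are not given here, so whether these counts are unusual cannot be said. SNX14 itself fell by 0.92 and 1.06 on the log2 scale after siSF3B1, and MAP4K4 by 0.54 and 0.53. AP2M1 differed by -0.08 ± 0.06 (SE) in DMSO and fell by 0.18 in 4OHT. The PHF21A gene rose by 0.54 and 1.03 after siSF3B1 (edgeR, adjusted p = 4.5e-09 and 1.4e-17).

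Among the splicing regulators of microexons, SRRM4 was at a median of 0 to 0.01 corrected RPKM in the 6 groups and SRRM3 at 0.25 to 2.04. SRRM3, SRRM4, RBFOX1, RBFOX3, NOVA1 and NOVA2 had under 10000 counts in total and were not tested. The SRRM3 medians in DMSO and 4OHT were 2.04 and 0.65 with siNT, 1.03 and 0.25 after siSF3B1, and 1.945 and 0.685 after siRBM39. For NOVA1 they were 1.44 and 0.375, 1.08 and 0.435, and 1.18 and 0.31 in the same order. PTBP2, the neuronal PTB paralogue, rose by 1.21 on the log2 scale after siSF3B1 in each treatment and by 0.84 and 1.16 after siRBM39. PTBP1 rose by 0.37 after siRBM39 in each treatment, and after siSF3B1 it rose by 0.15 in DMSO and fell by 0.07 in 4OHT. RNPS1, an activator of microexons, rose by 0.66 and 0.48 after siSF3B1 and by 0.28 and 0.21 after siRBM39. SRSF11 rose by 0.31 after siSF3B1 in 4OHT and fell by 0.19 after siRBM39 in DMSO. PTBP3 rose by 0.16 and 0.20 after siRBM39. MBNL1 rose by 0.60 and 0.55, MBNL2 by 0.58 and 1.02, and RBFOX2 by 0.26 and 0.33 after siSF3B1, while QKI fell by 0.27 and 0.29, and of these only MBNL2 was called after siRBM39 (0.26 in 4OHT).

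Of the factors at the 3′ splice site, U2AF1 rose after both knockdowns, by 0.58 and 0.47 after siSF3B1 and 0.42 and 0.28 after siRBM39. U2AF2 rose by 0.36 and 0.42 and PUF60 by 0.56 and 0.43 after siSF3B1, and neither was called after siRBM39. SF1, which binds the branch point before the U2 snRNP, rose by 0.54 and 0.64 after siRBM39 and by 0.14 after siSF3B1 in DMSO. RBM39 itself rose by 0.83 and 1.06 after siSF3B1, and SF3B1 by 0.46 and 0.29 after siRBM39. With RAS activation in siNT cells PTBP2 fell by 1.29, RBFOX2 by 0.53, RBM39 by 0.50, MBNL2 by 0.48, QKI by 0.46, SRSF11 by 0.28 and U2AF1 by 0.24, while PUF60 rose by 0.49, U2AF2 by 0.32, PTBP1 by 0.26 and PTBP3 by 0.20. The part of these levels in the microexon changes was not tested.

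Among host genes listed for neuronal microexons, 6 of 17 genes of the cytoskeleton and adhesion held 11 of the microexons, and the 12 nt exon of PTPRS was the one called against siNT. Of 25 genes of vesicle trafficking, AP1S2 and EXOC1 held 1 each, both at 0 in all libraries. Of 14 genes of transcription, chromatin and translation, KDM1A, MEF2D and PHF21A held 1 each, and PHF21A was called against siNT.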

How the data were processed

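RNA-seq of 48 libraries (single-end, 50 bases) was analysed from the deposited tables. The authors ran vast-tools against the VAST-DB human library named hg19, which gave PSI in percent per event with corrected inclusion and exclusion reads. The authors deposited gene counts and RPKM corrected for mappability. Coordinates in the event table differ from GRCh37, so GRCh37 exons were matched by exon and flanking intron lengths. The table of filtered CPM was not used, and 0 per-sample columns lacked a sample.

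Cassette exons with a PSI in all libraries, none of them graded N for coverage, were fitted with limma 3.58.1 on the logit of 0.01 plus 0.98 of the fraction, over 6 group means, with Benjamini-Hochberg adjustment over 16960 exons that varied. Calls needed an adjusted p under 0.05 and a difference of at least 5 points. Genes with at least 10000 counts in total (9991) were tested with edgeR 4.0.16 (TMM, quasi-likelihood). Single microexons were also tested with a two-sided exact permutation test in scipy 1.17.1. On data simulated for siSF3B1 against siNT in DMSO, 178 of 200 changed exons were recovered with 1 false call among 16960 exons. The changed exons were drawn from those with a mean PSI away from both limits and a small spread. All were shifted by the same amount on the logit scale with normal noise. The recovery is therefore not that of microexons near either limit of PSI.

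Every called microexon was named, or the 15 with the largest difference where over 30 were called. Full values were given for the leading 4 per knockdown and direction called in both treatments and for those called in opposite directions; other members given with ranges (PTS, IMMT, YTHDF1, LAYN, MAX, COL4A5) were chosen after their values were seen. Members, lists and tests were chosen with earlier results of these data known. SUPT5H held 0 of the microexons. The 12 nt exon of GRAMD1A entered as 2 events. Reads ran from 6 per microexon and library upwards, with a median of 64, and limits and intervals cover counting error only. Replicate pairs differed by more than sampling noise (chi-square per degree of freedom from 1.86 over 72 pairs). Alternatives were other tests, filters, thresholds, single siRNAs, omitted replicates and a replicate block.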

Additional observations from a re-analysis of the deposited data

Results flagged for a closer look

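In 8 of 101 groups of 8 libraries examined, 1 library lay far from the others by Dixon's criterion. Its chance rate of about 1 in 20 groups holds for normally distributed values, and PSI is bounded and often tied. With 7 libraries tied at a limit, as for TRIM27 in DMSO and GOPC in 4OHT, any departure is flagged. The number flagged can therefore not be set against that rate. The siNT1 library of replicate 2 in DMSO had a TRIM27 PSI of 97.46 with the other 7 at 100, and the siNT1 library of replicate 1 in 4OHT had 94.44 with the others from 97.52 to 100. CYTH2 was at 29.74 in the siNT1 library of replicate 4 in DMSO, with the others from 43.73 to 54.61. PHF21A was at 16.19 on 20 reads in the siRBM39-08 library of replicate 4 in 4OHT, the library that stood apart in gene counts, with the others from 0 to 6.31. DAPK3 was at 93.52 in the siNT2 library of replicate 1 in 4OHT, with the others from 98.1 to 100. GOPC was at 2.17 in the siSF3B1-13 library of replicate 3 in 4OHT and at 0 in the other 7. RPS24 was at 44.42 in the siSF3B1-16 library of replicate 1 in 4OHT, with the others from 20.18 to 30.2. TEAD2 was at 39.9 in the siNT2 library of replicate 2 in DMSO, with the others from 10.78 to 24.16.

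For 3 microexons the siSF3B1 effect differed between 4OHT and DMSO by the interaction test (limma): the 21 nt exon of CLTC by -6.06 points, NSFL1C by -19.27 and AP2M1 by 7.66 (adjusted p = 0.0216, 0.0182 and 0.0360). The number called was 0 by the quasi-binomial test on reads, 0 without replicate 1 of every group and 0 with siNT1 or siNT2 alone as control.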

How the results depend on the processing

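Of 168 counts of called microexons under alternatives, 134 stayed within 1.5 times the number given, and all 37 counts of host genes did. The counts after siSF3B1 in DMSO (45) and 4OHT (44), after siRBM39 in DMSO and 4OHT (22 each) and in the direct comparison in DMSO (44) and 4OHT (42) became 12, 10, 6, 8, 10 and 11 for microexons of at most 15 nt. These are 78 of the 227 members, counted from the same fit. With the plain logit over exons with PSI from 1 to 99, which left 17 microexons, the counts became 14, 14, 9, 10, 12 and 12. A coverage score of at least LOW gave 27 and 27 in the direct comparison in DMSO and 4OHT, and a minimum difference of 10 points gave 29 in DMSO. The count for 4OHT against DMSO with siNT (5) was 13 by P_diff of at least 0.8 (a comparison of read-based beta distributions), 8 with no minimum difference, 3 at 15 nt or less, 3 with the plain logit, 2 with siNT1 alone, 3 with siNT2 alone and 3 to 4 without each replicate. The count for the siSF3B1 interaction (3) was 23 by P_diff, 1 at 10 points, 0 by the quasi-binomial test, 0 with siNT1 or siNT2 alone, 7 and 1 with the first or second siRNA, and 0 to 2 without each replicate. The siRBM39 interaction (0) was 14 by P_diff. The cause was not tested. The mean change over microexons at 15 nt or less was -2.35 and -2.72 after siSF3B1 and 2.27 and 2.10 after siRBM39 (DMSO and 4OHT), with LOW coverage 0.673 and 0.623 after siRBM39, and as a median 0 in all 4 comparisons. With siSF3B1-13 or siSF3B1-16 alone it was -3.83 or -3.17 in 4OHT.

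No pairing by replicate number was seen in PSI: deviations of the same number correlated between -0.0517 and 0.0383 over 264 pairs. Counting error lowers such correlations, so they do not show how the libraries were prepared. With a replicate block the counts were 45, 44, 22, 22, 4, 44 and 42, so it changed the calls of 4OHT against DMSO by 1 and left the number in the other comparisons as it was. Reads limit what small changes can be seen: 8 of the 227 microexons had under 10 reads in some library.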
